A study of Mus musculus with 16 samples.

Results

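White adipose tissue from Sirt1 knockout mice on a high fat diet was compared with white adipose tissue from wild-type mice on the same diet, across all genes measured. The comparison used 8 of the 16 arrays of the study, 4 for each genotype. They were chosen by their labels alone, that is by diet, by the presence or absence of the Cre transgene and by replicate number. Knockout mice carried an FABP4-cre transgene and were labelled as having an adipocyte-specific deletion of Sirt1. Wild-type mice carried no Cre transgene, so no group held the transgene with an intact Sirt1 gene. All mice were of the C57BL6/J strain, began their diet at 4 weeks of age, ate it for 8 weeks and were 12 weeks old when the fat was taken. The other 8 arrays, 4 of knockouts and 4 of wild types fed a low fat diet, entered the fit and are used at the end for comparison. The labels used here leave out the fat depot, the sex of the mice and whether each replicate was its own mouse, so the spread behind the p-values may be technical.

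SIRT1 is a protein deacetylase that uses NAD as a cosubstrate and acts on histones and on transcription regulators such as the p65 subunit of NF-kB, PGC-1alpha, FOXO factors and SREBP proteins. In fat it is known for restraining PPARgamma and inflammatory gene expression. White fat holds adipocytes together with macrophages, endothelial cells, fibroblast-like progenitors and, in visceral depots, a covering of mesothelium. During overfeeding, macrophages that gather around failing adipocytes take up lipid, enlarge their lysosomes and can divide within the tissue. The FABP4 promoter drives Cre in adipocytes and is known to be active in some macrophages and endothelial cells as well, and which cells lost Sirt1 was not measured. Bulk tissue was measured, so fewer cells of a type and less RNA per cell cannot be told apart.

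The values are log2 expression per probe set as deposited, so a difference of 1 is a factor of 2, and the number of arrays limits the precision of each. Each gene was represented by its brightest probe set, and 12078 of 18193 genes were tested, those at a log2 value of 4 or more in 4 or more of the 16 arrays. Differences are knockout minus wild type, given with the standard error (SE) of the fit, and adjusted p-values are from limma with Benjamini-Hochberg adjustment over all genes tested. A gene was called when its adjusted p was under 0.05. The adipocyte markers Adipoq, at 13.2 to 13.5 in the knockout arrays and 13.4 to 13.6 in the wild-type arrays, and Fabp4, at 13.8 to 13.9 in the knockout arrays and 13.7 to 13.9 in the wild-type arrays, were among the brightest genes of the labelled tissue.

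Transcripts of other tissues in single arrays touch the results. Wild-type high fat replicate 4 held epithelial transcripts that the other 7 high fat arrays lacked. The bladder-lining gene Upk1a stood at 11.7 there, against 2.47 to 3.65 in the knockout arrays and 2.64 to 4.20 in the other 3 wild-type arrays, and Upk2 stood at 10.6 and Upk3a at 11.02. In that array 130 probe sets lay at least 8-fold above every one of the other 15. Each high fat difference and list count below was therefore also computed without it. Interactions of single genes and of lists are given only with it included. Skeletal muscle transcripts varied as well, with the troponin gene Tnnt3 at 8.20 in knockout replicate 4 and 8.86 in wild-type replicate 3, and between 3.40 and 7.95 in the other 6. The mean of 20 muscle genes ran from 4.94 to 7.01 in the knockout arrays and from 4.88 to 7.39 in the wild-type arrays, and no muscle gene was called. Leaving out the 5 arrays of the study with Tnnt3 at 8 or more is an alternative chosen after seeing the data.

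The targeted gene did not differ beyond the spread between arrays. Sirt1 had log2 values of 8.30, 8.93, 8.81 and 8.93 in knockout fat, against 8.85, 9.10, 9.08 and 8.85 in wild-type fat, and the groups overlapped. The difference was -0.22 (95% confidence interval -0.60 to 0.16, adjusted p = 0.448). Where its 1 probe set lies relative to the deletion is not stated in the labels, so this signal does not check the genotype labels. Of 18 tested genes for sirtuins and NAD metabolism, 1 was called, Bst1, an enzyme that consumes NAD on the surface of myeloid and stromal cells, which was higher by 1.12 ± 0.28 (SE, adjusted p = 0.0136). That call ended without wild-type replicate 3 (adjusted p = 0.0506) or knockout replicate 1 (adjusted p = 0.0512). Of 23 tested regulators that SIRT1 is known to deacetylate, 1 was called, the receptor gene Notch1, lower by 0.82 on the log2 scale (SE 0.13, adjusted p = 0.000696).

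In all, 1818 of 12078 genes were called, 15.1% of those tested. Of these, 1036 (8.58%) were higher and 782 (6.47%) lower in knockout fat, and these 2 shares are the background against which the gene groups below are read. At least 2-fold differences were called for 349 higher genes (2.89%) and 208 lower genes (1.72%). In 3150 genes (26.1%) the 4 knockout values all lay on one side of the 4 wild-type values, 1765 of them higher (14.6%) and 1385 lower (11.5%). The median difference of all genes tested was 0.003. Without wild-type replicate 4 the calls numbered 910 higher (7.53%) and 612 lower (5.07%), of which 837 and 580 were also called with it. Without knockout replicate 1 they numbered 670 higher and 414 lower, and without wild-type replicate 3 the lower calls numbered 498. Without the 5 arrays with muscle transcripts 497 genes were higher (4.11%) and 317 lower (2.62%).

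The 10 largest rises in knockout fat included Olr1, Gpr50, Lcn2, Hmga2, S100a7l2 and Trem2. Olr1, the gene of the oxidised LDL receptor LOX-1, stood at 8.90, 8.86, 9.38 and 9.57 in knockout fat, against 3.43, 5.22, 4.50 and 4.43 in wild-type fat. The groups lay more than 3 log2 units apart at their nearest values, and the difference was 4.79 ± 0.32, or 27.6-fold (adjusted p = 1.29e-06). Lcn2, which encodes the iron-siderophore carrier lipocalin 2 secreted by fat and myeloid cells, stood at 10.92, 10.09, 10.95 and 11.03 in knockout fat, against 6.93, 7.04, 6.05 and 6.70 in wild-type fat. Its difference was 4.07 ± 0.38 (adjusted p = 1.59e-05), with knockout replicate 2 the lowest of its group. Hmga2, for a chromatin protein of growing and embryonic cells, stood at 8.22, 6.72, 8.20 and 7.79 against 4.09, 4.96, 4.11 and 4.42 in wild-type fat, a difference of 3.34 ± 0.31 (adjusted p = 1.59e-05). All 4 knockout arrays were above all 4 wild-type arrays for each of these genes, which was a condition of being named among the 10 largest rises.

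Trem2, the gene of a lipid-sensing receptor of macrophages, stood at 10.39, 10.16, 10.40 and 9.86 in knockout fat, against 6.12, 8.08, 5.86 and 7.89 in wild-type fat. Wild-type replicates 2 and 4 were about 2 log2 units above replicates 1 and 3, and the difference was 3.21 ± 0.39 (adjusted p = 0.000125). The same split of the wild-type arrays appeared in Zranb3 (3.12 ± 0.34), for a DNA-remodelling enzyme of stalled replication forks, in Tlr13 (2.91 ± 0.37), for a receptor of bacterial ribosomal RNA, and in Rnf128 (2.88 ± 0.78), for a ubiquitin ligase. Rnf128 stood at 10.50 in wild-type replicate 4, against 10.58 in the lowest knockout array, and its call (adjusted p = 0.0204) ended without wild-type replicate 1 or 3 or knockout replicate 1. Gpr50, for an orphan receptor related to the melatonin receptors, rose by 4.11 ± 0.75 (adjusted p = 0.00179). It stood at 10.25 to 11.07 in knockout fat, against 7.28 to 7.83 in wild-type replicates 2 to 4 and 3.07 in replicate 1. S100a7l2, of the S100 calcium-binding family, stood at 5.54 to 8.18 in knockout fat and under 4 in all wild-type arrays, so that its rise of 4.47 ± 0.41 was 3.27 with values under 4 set to 4. Sel1l3 rose by 2.99 ± 0.36. The plot of the largest rises and falls shows the 8 values of each gene.

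**Figure D1:**
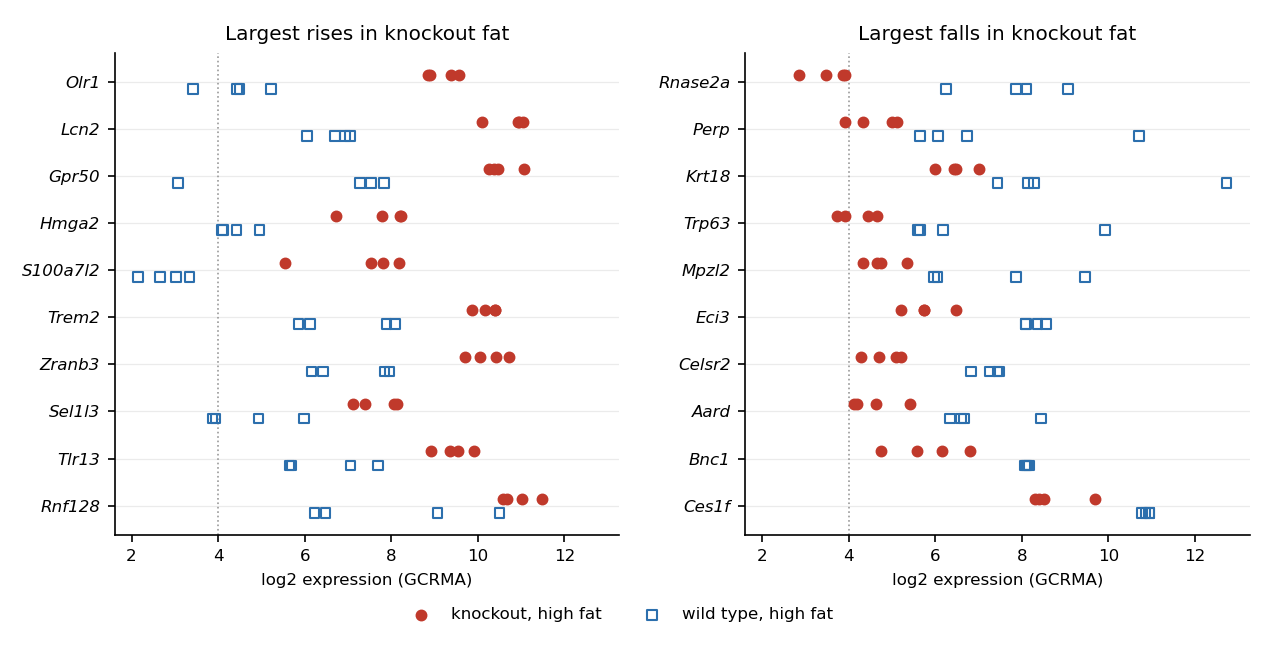
The 10 largest rises and the 10 largest falls on the high fat diet, 1 row per gene. The x axis is log2 expression, filled red circles are the 4 knockout arrays and open blue squares the 4 wild-type arrays, and the dotted line marks the log2 value of 4 used in the filter. The squares far to the right for Krt18, Perp, Trp63 and Mpzl2 are wild-type replicate 4.

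Lipid-associated macrophage genes were higher in knockout fat. Of 20 tested, 9 rose and 0 fell, the median difference was 1.15, and 19 were positive. Besides Trem2, the group included Atp6v0d2, for a proton pump subunit of macrophages and osteoclasts, Slc37a2, for a sugar-phosphate transporter of macrophages, and Ctsk, for the collagen-degrading protease cathepsin K. Atp6v0d2 stood at 11.32, 11.06, 11.52 and 11.11 in knockout fat, against 6.77, 9.58, 7.67 and 9.57 in wild-type fat, a difference of 2.86 ± 0.49 (adjusted p = 0.0014). Ctsk stood at 9.997, 9.23, 9.85 and 9.28 in knockout fat, against 7.65, 8.28, 8.03 and 8.16 in wild-type fat (1.56 ± 0.22, adjusted p = 0.000321), again with no overlap. Slc37a2 rose by 2.36 ± 0.39 and Cd5l, a macrophage-secreted protein that interferes with fatty acid synthesis, by 1.46 ± 0.21. The count was 11 without wild-type replicate 4, 9 to 12 with any 1 high fat array removed and 8 without the 5 muscle-bearing arrays.

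Pan-macrophage markers gave 12 rises and 1 fall among 30 tested, with a median difference of 0.47 and 25 positive. Clec7a, the gene of the fungal glucan receptor dectin-1, stood at 10.73, 10.62, 10.59 and 10.15 in knockout fat, against 8.95, 9.28, 9.09 and 8.98 in wild-type fat. Unlike Trem2 it was even across the wild-type arrays, and it rose by 1.45 ± 0.14 (adjusted p = 1.97e-05). Fcgr1, for the high-affinity antibody receptor CD64, rose by 1.97 ± 0.31, Ms4a7 by 1.39 ± 0.23 and the endotoxin co-receptor gene Cd14 by 0.84 ± 0.15. The fall was of Timd4, a phosphatidylserine receptor of resident macrophages, at 3.41, 3.81, 3.60 and 3.46 in knockout fat against 4.55, 5.03, 4.90 and 4.86 in wild-type fat (-1.26 ± 0.23, or -0.83 with values under 4 set to 4, adjusted p = 0.00173). The receptor gene Csf1r, which all macrophages use, and the lysozyme gene Lyz2 differed by 0.004 and 0.12 and were not called. Both were chosen after their values were seen. Without the 5 arrays with muscle transcripts 8 macrophage markers were higher.

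Of 16 scavenger receptor genes tested, Olr1, Msr1 and Stab2 rose and Timd4 fell. Msr1, for the type A receptor of modified LDL, stood at 8.97, 8.55, 8.79 and 8.19 in knockout fat, against 5.96, 7.40, 6.04 and 6.99 in wild-type fat (2.03 ± 0.28, adjusted p = 0.000308). Stab2, for the hyaluronan receptor stabilin-2, rose by 1.36 ± 0.23 (adjusted p = 0.00131).

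The lysosome list followed the same direction, with 11 rises and 0 falls among 27 tested, a median difference of 0.27 and 26 positive. Gusb, for beta-glucuronidase, stood at 11.29, 11.16, 11.10 and 10.82 in knockout fat, against 9.77, 10.25, 9.74 and 10.16 in wild-type fat (1.11 ± 0.15, adjusted p = 0.000236). Gla, for alpha-galactosidase, rose by 1.62 ± 0.26, and Tfeb, for a transcription factor that drives lysosomal genes, by 0.90 ± 0.17. A second, dimmer probe set of Gla was not called. Without the 5 arrays with muscle transcripts 5 lysosome genes rose.

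The summed macrophage programme differed between the wild-type arrays as well as between genotypes. The mean of the lipid-associated list was 10.63 to 10.83 in the knockout arrays, against 10.19 and 10.08 in wild-type replicates 2 and 4 and 8.88 and 9.25 in replicates 1 and 3. The lysosome mean was 10.98 to 11.08 in knockout fat, against 10.23 to 10.77 in wild-type fat. The lowest knockout array stood above the highest wild-type array in both lists, as the plot of list means shows.

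**Figure D2:**
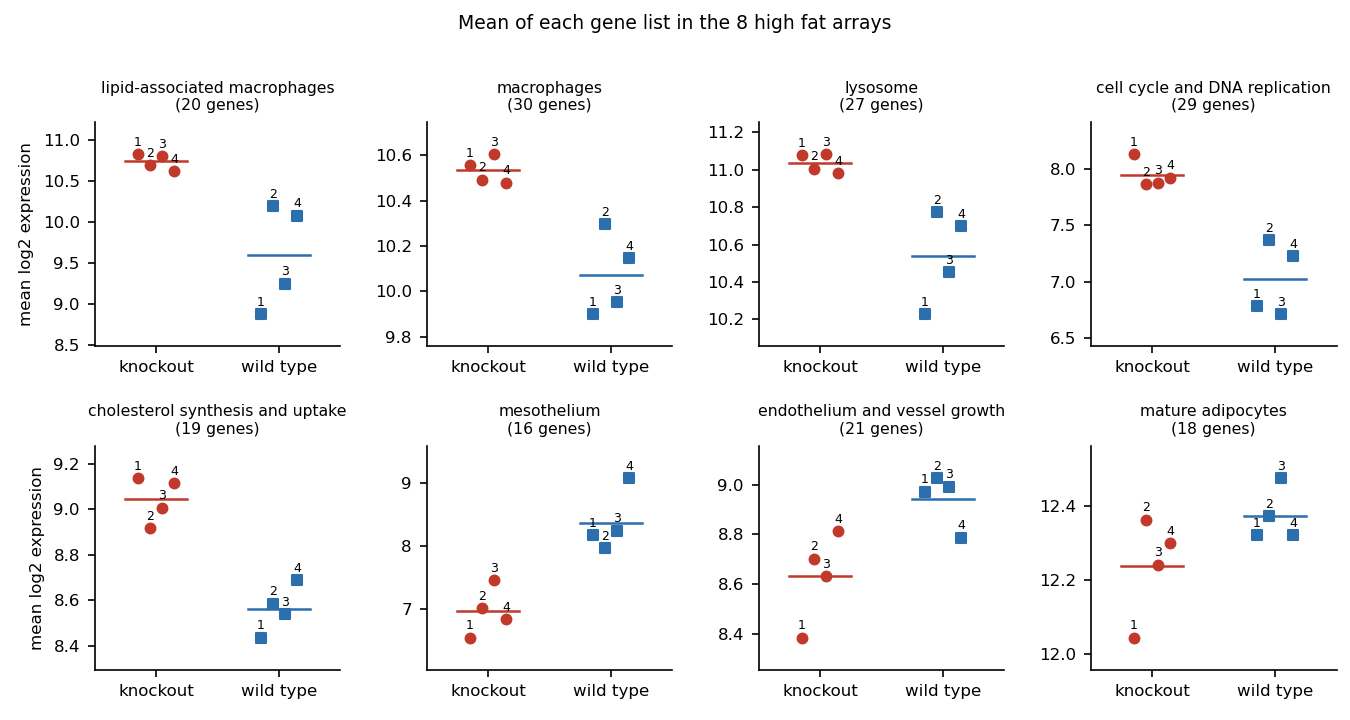
Mean log2 expression (y axis) of the tested genes of 8 lists in each of the 8 high fat arrays, red circles for knockout on the left and blue squares for wild type on the right, labelled with the replicate number, with the group mean as a line. The groups do not overlap for the 2 macrophage lists, the lysosome, the cell cycle, cholesterol synthesis and mesothelium, and they overlap for endothelium and adipocytes.

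Genes of the inflammasome, caspases and the interleukin-1 axis rose in 8 of 15 tested and fell in 0, with a median difference of 0.45. Casp1, the protease that matures interleukin-1beta and interleukin-18, stood at 11.22, 10.91, 10.77 and 10.86 in knockout fat, against 9.96, 10.13, 10.17 and 10.01 in wild-type fat (0.87 ± 0.14, adjusted p = 0.001). Its adaptor gene Pycard rose by 1.18 ± 0.24 and the inflammasome sensor gene Naip2 by 1.17 ± 0.22. The largest rise in the list was of Il1rn, whose product blocks the interleukin-1 receptor, at 10.89, 10.54, 10.56 and 10.77 in knockout fat, against 6.27, 9.83, 7.05 and 9.15 in wild-type fat (2.61 ± 0.58, adjusted p = 0.00653). A dimmer probe set of Pycard was not called. The count of rises was 4 without wild-type replicate 1 or 3 or knockout replicate 3, 5 without knockout replicate 1 or 4, and 4 without the 5 arrays with muscle transcripts.

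Among 24 cytokine and chemokine genes tested, 5 rose and 1 fell. Ccl3, for the macrophage inflammatory chemokine MIP-1alpha, stood at 7.30, 6.77, 7.75 and 7.09 in knockout fat, against 3.16, 5.35, 3.85 and 4.12 in wild-type fat (3.11 ± 0.33, adjusted p = 4.39e-05). Its neighbour Ccl4 stood at 4.22 to 4.60 in knockout fat and under 4 in all wild-type arrays, so that its difference of 1.45 ± 0.14 was 0.40 with values under 4 set to 4. Tgfb1, the gene of transforming growth factor beta 1, rose by 1.14 ± 0.25. The fall was of Cxcl9, a chemokine gene induced by interferon gamma, which stood at 9.36, 10.12, 9.27 and 9.59 in knockout fat against 10.92, 10.72, 10.78 and 10.36 in wild-type fat (-1.11 ± 0.23, adjusted p = 0.00412). The rises numbered 3 without wild-type replicate 1 or 3 or knockout replicate 1.

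Acute phase genes and calprotectin were mixed, with 5 rises and 2 falls of 15 tested. After Lcn2, S100a8, a subunit of the neutrophil and monocyte protein calprotectin, stood at 10.83, 10.30, 11.07 and 11.40 in knockout fat, against 8.10, 8.44, 8.60 and 8.88 in wild-type fat (2.39 ± 0.41, adjusted p = 0.0014). Serum amyloid gene Saa1 rose by 2.24 ± 0.36 and Saa2 by 1.45 ± 0.22, each at 4.84 or above in knockout fat, and the orosomucoid gene Orm2 rose by 1.19 ± 0.18. With values under 4 set to 4, the rise was 1.79 for Saa1 and 1.28 for Saa2. Complement genes gave 4 rises and 3 falls of 18 tested. Cfi, the protease that inactivates C3b, stood at 5.57, 5.97, 6.42 and 5.96 in knockout fat and under 4 in all wild-type arrays (2.59 ± 0.20, or 1.98 with values under 4 set to 4, adjusted p = 3e-06). The anaphylatoxin receptor gene C3ar1 rose by 1.88 ± 0.28, while C2, of the classical pathway, fell by 1.02 on the log2 scale (SE 0.18).

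Genes of the cell cycle and DNA replication were the list with the highest share of rises. Of 29 tested, 21 rose and 0 fell, all 29 differences were positive and their median was 0.93. Tk1, for the thymidine kinase of S phase, stood at 7.61, 7.22, 7.62 and 7.53 in knockout fat, against 4.66, 5.75, 4.34 and 5.67 in wild-type fat (2.39 ± 0.31, adjusted p = 0.000185). Bub1, for a mitotic checkpoint kinase, stood at 6.04, 5.41, 5.31 and 6.17 in knockout fat, against 3.24, 4.31, 3.20 and 3.71 in wild-type fat (2.12 ± 0.24, or 1.66 with values under 4 set to 4, adjusted p = 6.47e-05). Mcm2, of the replicative helicase, rose by 1.32 ± 0.25, and the mitotic cyclin gene Ccnb2 by 1.07 ± 0.18. The list mean was 7.87 to 8.13 in knockout fat, against 7.37 and 7.23 in wild-type replicates 2 and 4 and 6.79 and 6.72 in replicates 1 and 3. The arrays do not show which cells divided. Leaving out any 1 high fat array gave 14 to 22 rises, and removing the 5 muscle-bearing arrays gave 11.

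Promoters of rising members of the cell cycle and lysosome lists are shown because both lists have well-known promoter elements, the CHR element and the E2F site of cell cycle genes and the CLEAR element of TFEB targets. The windows are RefSeq sequence of mouse build GRCm38.p6, from 250 bases before to 50 after the annotated start, on the strand of the gene, with matches in capitals. Ccnb2 is at chr9:70421505-70421804 and Cdk1 at chr10:69352863-69353162, both on the minus strand, with the CHR letters in capitals. Mcm6 at chr1:128359656-128359955 carries the E2F letters, and Gla at chrX:134600956-134601255 the CLEAR letters, both on the minus strand. Cdk1, for the kinase that starts mitosis, and Mcm6, of the same helicase as Mcm2, rose by 1.04 each and were chosen after their values were seen.
Ccnb2: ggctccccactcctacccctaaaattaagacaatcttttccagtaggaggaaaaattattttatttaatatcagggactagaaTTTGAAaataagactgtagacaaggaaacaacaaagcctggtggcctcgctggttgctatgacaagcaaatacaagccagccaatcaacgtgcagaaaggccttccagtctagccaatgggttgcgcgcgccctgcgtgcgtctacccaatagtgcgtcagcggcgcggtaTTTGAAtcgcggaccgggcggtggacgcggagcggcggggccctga
Cdk1: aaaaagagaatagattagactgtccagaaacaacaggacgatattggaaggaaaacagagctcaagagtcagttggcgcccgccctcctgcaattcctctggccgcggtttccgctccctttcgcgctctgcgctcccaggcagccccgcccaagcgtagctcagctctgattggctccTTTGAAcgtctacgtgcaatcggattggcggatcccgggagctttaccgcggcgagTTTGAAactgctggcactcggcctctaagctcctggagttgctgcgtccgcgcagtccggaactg
Mcm6: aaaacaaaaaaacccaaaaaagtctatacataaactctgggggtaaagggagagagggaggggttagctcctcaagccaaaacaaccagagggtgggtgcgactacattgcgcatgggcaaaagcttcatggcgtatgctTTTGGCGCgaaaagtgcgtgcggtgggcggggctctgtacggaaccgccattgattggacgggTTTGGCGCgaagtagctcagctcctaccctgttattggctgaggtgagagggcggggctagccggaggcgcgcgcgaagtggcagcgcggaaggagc
Gla: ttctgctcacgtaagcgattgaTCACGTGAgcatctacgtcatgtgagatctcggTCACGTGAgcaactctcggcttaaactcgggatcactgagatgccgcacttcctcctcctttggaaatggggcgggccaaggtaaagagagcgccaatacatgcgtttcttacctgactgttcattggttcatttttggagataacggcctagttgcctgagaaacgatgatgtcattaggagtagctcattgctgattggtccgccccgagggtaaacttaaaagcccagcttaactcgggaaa

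Both strands were searched. The CHR letters TTTGAA were found in 8 of the 18 rising cell cycle genes that had a promoter window, and in 14.2% of the 9738 tested genes with a window. The E2F letters, TTTCCCGC or TTTGGCGC, were found in 3 of the 18, namely Mcm3, Mcm5 and Mcm6, and in 3.36% of the tested genes. The CLEAR letters TCACGTGA were found in 3 of the 8 rising lysosome genes with a window (Gla, Ctsa and Atp6v1a) and in 2.14% of the tested genes. For cholesterol synthesis, described further on, the sterol element letters TCACNNCAC were found in 2 of 5 rising genes with a window, Dhcr7 and Msmo1, and in 4.4% of the tested genes. TTTGAA and TTTGGCGC share their first 4 letters, as do TCACGTGA and TCACNNCAC, and none holds another whole. Among all tested list members with a window, rising or not, the CHR letters were found in 10 of 23 and the E2F letters in 4 of 23. The CLEAR letters were found in 6 of 21 and the sterol element letters in 4 of 15. The lists are of genes known for these elements, and whether matches go with rising in knockout fat was not tested. A match is a description of the sequence, not a measured site.

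The falls in knockout fat were led by the mesothelium. Of 16 mesothelial genes tested, 13 fell and 0 rose, all 16 differences were negative and their median was -1.49. Bnc1, for the zinc finger protein basonuclin-1, stood at 4.74, 6.16, 6.82 and 5.58 in knockout fat, against 8.17, 8.12, 8.11 and 8.07 in wild-type fat (-2.29 ± 0.43, adjusted p = 0.00233). The 4 wild-type values lay within 0.1 of each other, and the knockout values spread over 2 log2 units below them. Aldh1a2, for the enzyme that makes retinoic acid, stood at 5.79, 6.02, 6.38 and 5.90 in knockout fat, against 7.67, 7.79, 7.30 and 7.67 in wild-type fat (-1.58 ± 0.27, adjusted p = 0.00113). Upk3b, a uroplakin gene that mesothelium also uses, fell by 1.46 on the log2 scale (SE 0.28) and Efna5, for an ephrin ligand, by 0.58 (SE 0.12). Wild-type replicate 4, the array with epithelial transcripts, was the highest of the 8 for the keratin genes of the list. Krt18 stood at 5.99, 6.44, 7.004 and 6.48 in knockout fat, against 8.28, 7.44, 8.14 and 12.73 in wild-type fat, and its difference was -2.67 with that array and -1.47 without it. For Bnc1 and Aldh1a2 the difference without it was -2.31 and -1.57. The count of falls was 11 without wild-type replicate 4, 8 without knockout replicate 1, and 6 without the 5 arrays with muscle transcripts.

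**Figure D3:**
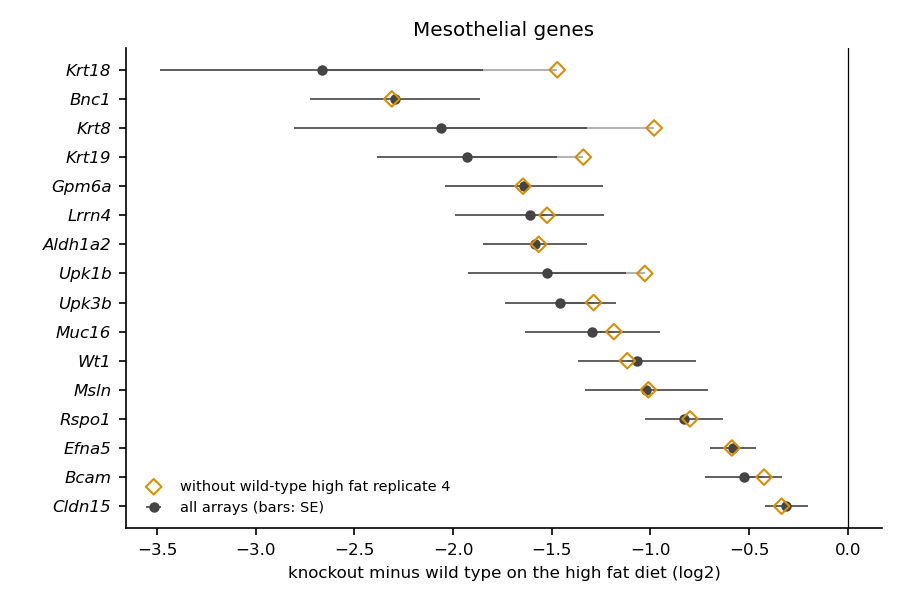
Difference of knockout minus wild type on the high fat diet (x axis, log2) for the 16 mesothelial genes tested. Grey circles with SE bars are the fit to all arrays and orange diamonds the fit without wild-type high fat replicate 4. All values lie below 0, and the 2 symbols part most for the keratin genes Krt18, Krt8 and Krt19 and for Upk1b.

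Several of the largest single falls shared the high value in wild-type replicate 4. Perp, of desmosomes, stood at 10.71 in that array and 5.64 to 6.74 in the other 3 wild-type arrays, against 3.91 to 5.12 in knockout fat. Trp63, for the epithelial transcription factor p63, stood at 9.93 and 5.60 to 6.19 in the same arrays, against 3.72 to 4.66 in knockout fat. Without that array the differences were -1.55 for Perp (-2.69 with it), -1.63 for Trp63 (-2.66), -1.86 for the adhesion gene Mpzl2 (-2.56) and -1.94 for Aard (-2.42). A call without that array was a condition of being named among the largest falls, so their calls there were fixed by the choice. The call of Perp ended without wild-type replicate 1 or any 1 knockout array (adjusted p = 0.0545 to 0.112), that of Krt18 without any 1 knockout array (0.0541 to 0.106) and that of Trp63 without knockout replicate 1 or 3 (0.0619 and 0.054).

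Other large falls were of similar size without that array, -3.88 for Rnase2a, -2.54 for Eci3, -2.37 for Celsr2 and -2.16 for Ces1f. Rnase2a, for a ribonuclease of eosinophils, stood at 2.85, 3.48, 3.93 and 3.87 in knockout fat, against 8.11, 7.86, 6.25 and 9.08 in wild-type fat. All knockout values lay under 4, and the difference of -4.29 ± 0.53 was -3.83 with values under 4 set to 4 (adjusted p = 0.000134). Of 12 tested neutrophil, mast cell and eosinophil genes it was the 1 that fell, while S100a8 and the antibody receptor gene Fcer1a (1.08 ± 0.28) rose, the last not called without wild-type replicate 3 or knockout replicate 1 or 3. Eci3, for a peroxisomal enzyme of unsaturated fatty acid oxidation, stood at 5.22, 6.48, 5.75 and 5.75 in knockout fat, against 8.09, 8.37, 8.55 and 8.11 in wild-type fat (-2.48 ± 0.24, adjusted p = 1.91e-05). Celsr2, for a cadherin of planar cell polarity, fell by 2.44 on the log2 scale (SE 0.24, adjusted p = 1.91e-05) and the carboxylesterase gene Ces1f by 2.15 (SE 0.24, adjusted p = 6.47e-05). The groups did not overlap for any of these 4, which was a condition of being named among the largest falls.

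Endothelial and vessel growth genes gave 7 falls and 1 rise among 21 tested, with a median difference of -0.35 and 17 negative. Kdr, for the main receptor of vascular endothelial growth factor, stood at 7.62, 8.11, 7.84 and 8.41 in knockout fat, against 9.03, 9.13, 9.12 and 8.99 in wild-type fat (-1.07 ± 0.17, adjusted p = 0.000702). Its ligand gene Vegfa stood at 8.65, 9.14, 9.001 and 8.79 in knockout fat, against 10.40, 10.05, 10.19 and 9.77 in wild-type fat (-1.21 ± 0.21, adjusted p = 0.00149). Receptor and ligand were thus both lower without overlap. The endothelial transcription factor gene Sox18 fell by 0.79 on the log2 scale (SE 0.22), and Angpt2, whose product loosens vessel walls, rose by 0.87 ± 0.17. The call of Sox18 ended without wild-type replicate 3 or knockout replicate 1. The falls numbered 3 without wild-type replicate 2, 2 without wild-type replicate 3 or knockout replicate 1, 4 without knockout replicate 3 and 3 without the 5 arrays with muscle transcripts.

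Most calls among stromal genes were falls. Of 20 tested Wnt genes 5 fell and 1 rose, with a median difference of -0.46. The ligand gene Wnt5a stood at 7.53, 8.54, 8.26 and 8.34 in knockout fat, against 8.98, 9.28, 9.31 and 9.44 in wild-type fat (-1.08 ± 0.22, adjusted p = 0.00355), and Wnt5b fell by 0.90 on the log2 scale (SE 0.21). The secreted inhibitor genes went in both directions, Sfrp1 rising by 1.02 ± 0.19 and Sfrp2 falling by 1.08 on the log2 scale (SE 0.32). The call of Sfrp2 ended without wild-type replicate 2, 3 or 4 or knockout replicate 1 or 4. A dimmer Wnt5a probe set was not called (-0.61, adjusted p = 0.157), while another was (-1.16, adjusted p = 0.00705). The Wnt falls numbered 3 without wild-type replicate 2 or 3 and 2 without wild-type replicate 4, knockout replicate 1 or knockout replicate 4. Among 17 stromal and progenitor markers 3 fell, namely Cd24a (-0.80 ± 0.17), Dpp4 (-0.76 ± 0.20) and Cd55 (-0.54 ± 0.15), and 16 of 17 differences were negative. That count was 1 without wild-type replicate 3, and the call of Dpp4 also ended without knockout replicate 1 and that of Cd55 without knockout replicate 3. The dimmer Cd55 probe sets were not called (adjusted p = 0.0673 and 0.204).

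The 29 collagen and matrix genes gave 2 falls, of Col14a1 (-1.09 ± 0.21, adjusted p = 0.00269) and Col8a1 (-0.88 ± 0.26, adjusted p = 0.0325), and a median difference of -0.08. Only Col14a1 was called without any 1 of wild-type replicates 1, 3 and 4 and knockout replicates 2 to 4. Matrix proteases and their inhibitors gave 5 rises and 2 falls of 21. Adam8, for a protease of activated macrophages and neutrophils, rose by 2.73 ± 0.47 and the stromelysin gene Mmp3 by 0.85 ± 0.15. Mmp9, for gelatinase B, fell by 1.22 on the log2 scale (SE 0.24), a fall that its second probe set did not pass. The falls numbered 1 without any 1 high fat array other than wild-type replicate 4.

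The 15 genes of MHC class II presentation gave 2 falls and 1 rise, with a median difference of -0.03. H2-DMb2, for a peptide-loading chain, stood at 6.66, 7.71, 6.86 and 7.31 in knockout fat, against 8.59, 8.46, 8.33 and 8.55 in wild-type fat (-1.35 ± 0.23, adjusted p = 0.00131), though another of its 3 probe sets was not called. The dendritic cell lectin gene Cd209a fell by 1.56 on the log2 scale (SE 0.40), and Ifi30, for a lysosomal thiol reductase of antigen processing, rose by 0.70 ± 0.20. Cd209a was not called without knockout replicate 1, and the rise was lost without wild-type replicate 1 or 3 or knockout replicate 1, 2 or 3. Among 21 interferon response genes 3 rose and 3 fell, 16 differences were negative and the median was -0.24. The factor gene Irf8 rose by 1.01 ± 0.18 and Oasl1 by 1.19 ± 0.21, whereas Usp18 fell by 0.73 on the log2 scale (SE 0.20) and Ifit3 by 0.53 (SE 0.14). The interferon falls numbered 0 without knockout replicate 1 and 1 without wild-type replicate 2 or 4 or knockout replicate 3 or 4. Of 17 T, B and NK cell genes, Il7r (1.85 ± 0.38) and Ighm (1.15 ± 0.33) rose, while 14 of 17 differences were negative and the median was -0.34. The call of Ighm was lost without wild-type replicate 1, 2 or 4 or knockout replicate 2 or 4. Its other tested probe sets were not called (adjusted p = 0.182 to 0.779). With the mean of its probe sets the difference was 0.52 (adjusted p = 0.30).

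Among lipid pathways, cholesterol synthesis differed most. Of 19 tested, 6 rose and 1 fell, 17 differences were positive and the median was 0.51. Dhcr7, the last enzyme of cholesterol synthesis, stood at 11.09, 10.76, 10.95 and 11.01 in knockout fat, against 9.998, 10.001, 9.84 and 10.07 in wild-type fat (0.98 ± 0.12, adjusted p = 0.000125). Nsdhl rose by 1.00 ± 0.20, the mevalonate decarboxylase gene Mvd by 0.85 ± 0.15 and the methyl sterol oxidase gene Msmo1 by 0.72 ± 0.15, with a dimmer Msmo1 probe set not called. Without the 5 arrays with muscle transcripts 3 genes rose.

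Fatty acid and triglyceride synthesis gave 5 rises and 2 falls of 26, with a median difference of 0.11. Pnpla3, for a lipid droplet protein of the patatin family, stood at 9.67, 10.15, 9.51 and 9.69 in knockout fat, against 7.57, 7.51, 8.20 and 7.47 in wild-type fat (2.07 ± 0.42, adjusted p = 0.00361). The desaturase gene Scd2 rose by 0.68 ± 0.14 and the acyltransferase gene Agpat2 by 0.86 ± 0.21. Fads2, for the delta-6 desaturase, fell by 1.15 on the log2 scale (SE 0.17, adjusted p = 0.000525), while its dimmer probe set was not called. The rises numbered 3 without wild-type replicate 2 or 4 or knockout replicate 2, 3 or 4, and the falls 1 without wild-type replicate 1, 2 or 3 or knockout replicate 1 or 3. Lipolysis and fatty acid oxidation gave 2 falls of 25, of Ehhadh (-0.63 ± 0.19, adjusted p = 0.0377) and Pde3b (-0.33 ± 0.11, adjusted p = 0.0471), and both calls ended without wild-type replicate 1 or 3 or knockout replicate 1, 2 or 3, that of Pde3b also without knockout replicate 4 or any of 4 single low fat arrays and with each array centred on its median (adjusted p = 0.0589). Of 33 citric acid cycle and respiratory chain genes 0 were called by limma, with a median difference of -0.03.

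Branched-chain amino acid catabolism gave 4 falls and 0 rises of 23, and 18 differences were negative. Hibch, of valine breakdown, stood at 11.31, 11.69, 11.49 and 11.42 in knockout fat, against 12.21, 12.02, 12.17 and 12.02 in wild-type fat (-0.63 ± 0.11, adjusted p = 0.00142). Acadsb, for a short branched-chain acyl-CoA dehydrogenase, fell by 0.58 on the log2 scale (SE 0.11), Ppm1k, the phosphatase that activates the branched-chain ketoacid dehydrogenase, by 0.63 (SE 0.13), and Ivd, of leucine breakdown, by 0.55 (SE 0.17), a call that ended without any 1 high fat array other than knockout replicate 2. A dimmer Ivd probe set was not called (adjusted p = 0.0687). Of 23 insulin signalling and glucose genes 3 rose and 4 fell, and 14 differences were negative. Irs1, for a docking protein of the insulin receptor, stood at 8.71, 9.49, 9.40 and 9.50 in knockout fat, against 10.28, 10.40, 10.59 and 10.21 in wild-type fat (-1.09 ± 0.23, adjusted p = 0.00414). Genes whose products damp the receptor's signal, Ptpn1 (0.66 ± 0.15) and Grb14 (1.03 ± 0.25), rose, though a second Ptpn1 probe set was not called, and the related Grb10 fell by 0.45 on the log2 scale (SE 0.12). The call of Grb10 ended without wild-type replicate 1 or 3, and its dimmer probe sets were not called (adjusted p = 0.0836 and 0.412). The insulin list falls numbered 1 without wild-type replicate 1 or 3 and 2 without knockout replicate 3 or 4.

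Of 18 mature adipocyte genes tested, 2 fell (11.1%, against 6.47% of all genes tested) and 0 rose, and 15 differences were negative. The falls were of Pck1 (-0.59 ± 0.11, adjusted p = 0.00203), for an enzyme that supplies glycerol to triglycerides, and Retn (-0.56 ± 0.16, adjusted p = 0.0301), for the hormone resistin. The median difference of the list was -0.12, and the call of Retn ended without wild-type replicate 2, 3 or 4 or knockout replicate 1 or 4. In the list of fat mass growth and imprinted genes Peg3 (-0.52 ± 0.11), Plagl1 (-0.64 ± 0.17) and Grb10 fell, 3 of 14, a count that was 1 without wild-type replicate 3 and 5 with each array centred on its median. The call of Plagl1 ended without wild-type replicate 1 or 3 or knockout replicate 1 or 2. A dimmer Plagl1 probe set was not called (adjusted p = 0.0744), while another was (adjusted p = 0.0015). The single brown and beige fat call was Otop1, for a proton channel, higher by 1.60 ± 0.38 (adjusted p = 0.0103). The clock list gave 1 rise and 4 falls of 17. Nr1d1, for the repressor REV-ERBalpha, stood at 7.31, 7.0, 6.24 and 6.13 in knockout fat, against 8.19, 8.09, 7.67 and 7.29 in wild-type fat (-1.14 ± 0.26, adjusted p = 0.00761). Hlf fell by 1.02 on the log2 scale (SE 0.21), and Nfil3, whose product opposes HLF at its sites, rose by 1.21 ± 0.22. A dimmer Hlf probe set was not called (-0.50, adjusted p = 0.0544). The clock falls numbered 2 without wild-type replicate 1, and the labels used here do not state the time of day at which fat was taken.

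Among 30 genes of glutathione, peroxiredoxin and thioredoxin enzymes 2 rose (6.67%) and 3 fell (10%), against 8.58% and 6.47% of all genes tested. The haem-degrading enzyme gene Hmox1 was up by 1.38 ± 0.25 and Srxn1 by 0.77 ± 0.16. Gsta4 stood at 13.08 in wild-type replicate 4 and 10.28 to 10.77 in the other 3 wild-type arrays, against 8.54 to 9.30 in knockout fat, and its difference was -2.15 with that array and -1.50 without it. Of 25 unfolded protein response genes 1 was called, Ddit3, for the stress factor CHOP, higher by 0.71 ± 0.17. A dimmer Ddit3 probe set was not called (0.26, adjusted p = 0.321). Of 20 immediate early genes Atf3 rose by 1.88 ± 0.45 and Ier3 fell by 0.90 on the log2 scale (SE 0.19). The plot of shares called by list sets all lists with at least 10 tested genes beside the background.

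**Figure D4:**
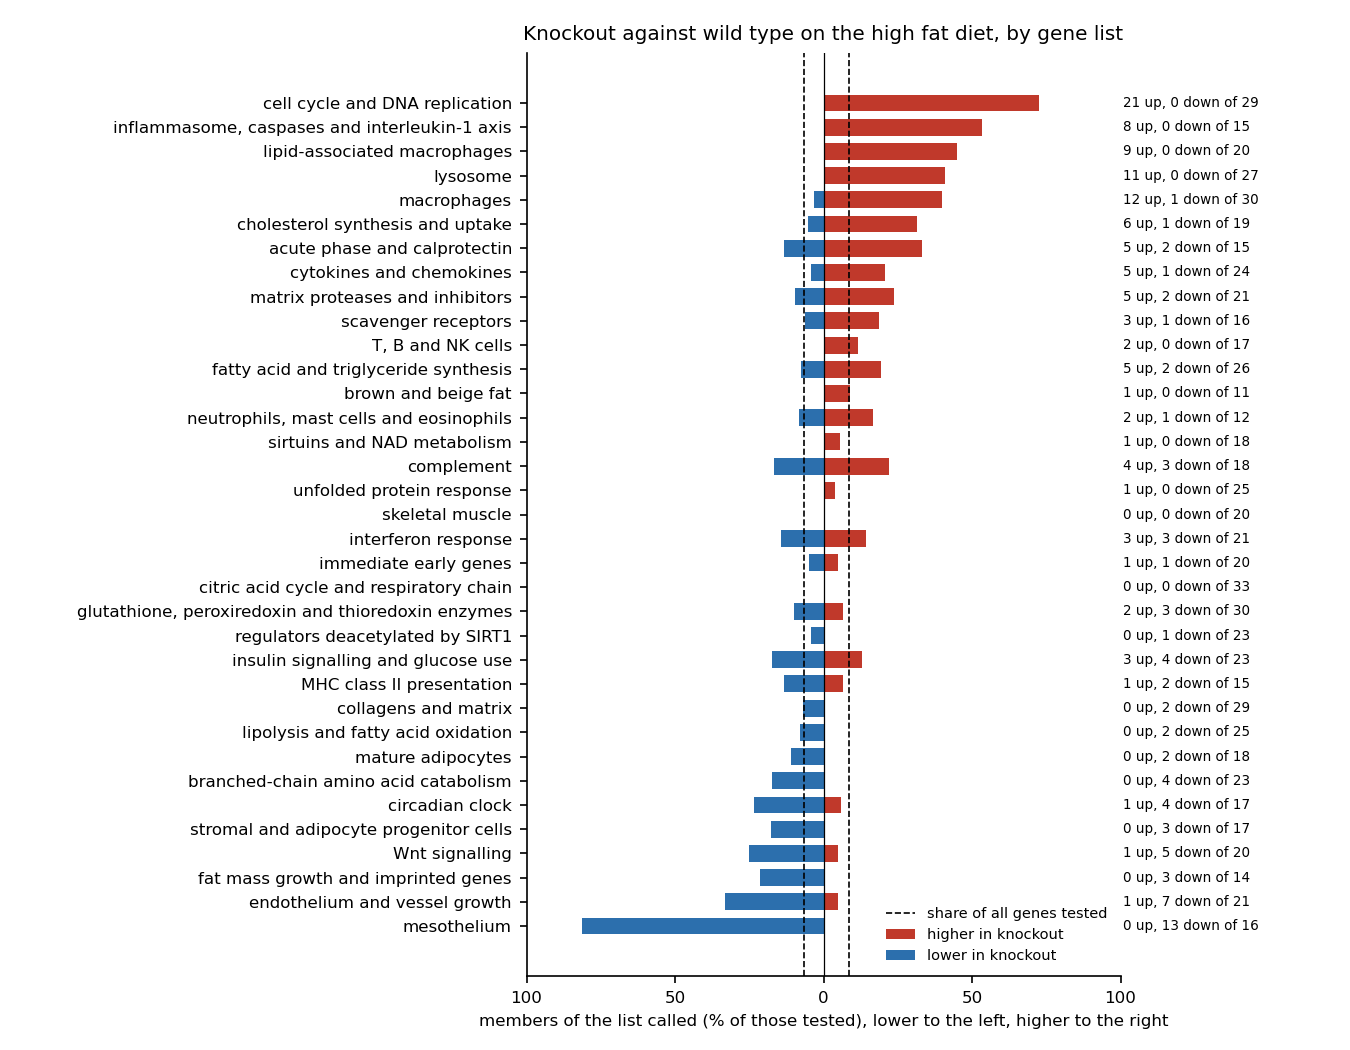
Share of the tested members of each gene list that was called in knockout against wild-type fat after high fat feeding (x axis, percent), higher to the right in red and lower to the left in blue, with the counts at the right. Dashed lines mark the shares among all genes tested, 8.58% higher and 6.47% lower. Cell cycle, inflammasome, macrophage and lysosome lists stand at the top and mesothelium at the bottom.

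The genotype difference on the high fat diet was then set beside the same difference on the low fat diet, and the change of the difference between diets was tested as an interaction. The 2 comparisons share no arrays. On the low fat diet 2284 genes (18.9%) were called, 1410 higher (11.7%) and 874 lower (7.24%). Of the 1036 genes higher on the high fat diet 250 were also higher on the low fat diet, 24.1% of the high fat list and 17.7% of the 1410 low fat genes, and 24 were lower there. Of the 782 lower genes 111 were also lower, 14.2% of the high fat list and 12.7% of the 874 low fat genes, and 97 (12.4%) were higher there. The median low fat difference was 0.29 for the genes higher on the high fat diet and -0.02 for the genes lower on it. The interaction was called for 1569 genes (13%) in all, among them 287 of the higher (27.7%) and 344 of the lower genes (44.0%). The interaction contains the high fat difference by which these genes were chosen. High shares among them were therefore favoured by the choice and do not measure dependence on diet.

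The lists differed in how far the genotype difference on the high fat diet was seen on the low fat diet. Mesothelial genes, of which 13 fell on the high fat diet, had 0 calls on the low fat diet by limma, with a median difference of 0.03. Of the 16 tested, 7 had a negative interaction, Aldh1a2 among them (-1.95, adjusted p = 0.00389). Among all genes tested the share with a negative interaction was 7.87%. Wild-type high fat replicate 4 was part of the fit behind these interactions. Macrophage markers rose in 7 of 30 and lipid-associated genes in 5 of 20 on the low fat diet, against 11.7% of all genes tested. Cell cycle genes rose in 7 of 29 there and fell in 1, with a median of 0.44. With values under 4 set to 4, the low fat difference was 0.0 for Bub1 (0.59 as measured) and 0.24 for Tk1 (0.85). In the same way it was 0.02 for Ccnb2, and it stayed at 0.17 for Mcm2. Collagen and matrix genes rose in 16 of 29 on the low fat diet and MHC class II genes in 9 of 15, against 0 and 1 on the high fat diet. A negative interaction was called for 10 of the 29 and 6 of the 15, again against 7.87% of all genes tested. Single genes split in the same way. Olr1 was higher on both diets, by 4.79 on the high fat and 2.31 on the low fat diet, and the 2 differences differed by 2.48 (adjusted p = 0.00295), or by 3.76 with values under 4 set to 4, when the low fat difference was 0.88. Rnase2a was lower by 4.29 on the log2 scale on the high fat diet and higher by 2.59 on the low fat diet, an interaction of -6.89 (adjusted p = 7.61e-05), and Stab2 was higher by 1.36 on the high fat diet and lower by 1.06 on the low fat diet. Celsr2, Pnpla3, S100a8 and Sfrp1 differed in the same direction on both diets, and their interactions were not called (adjusted p = 0.146, 0.459, 0.722 and 0.598).

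The genes with the strongest interactions were mostly not called for genotype on the high fat diet. Mest, an imprinted gene tied to adipocyte enlargement, stood at 11.98, 12.26, 12.14 and 12.25 in knockout fat, against 12.40, 12.70, 12.76 and 12.62 in wild-type fat when the diet was high in fat, and was not called (-0.46 ± 0.17, adjusted p = 0.0772). On the low fat diet it was higher by 2.99 in knockout fat (interaction -3.45, adjusted p = 1.57e-06). The Wnt inhibitor gene Sfrp5 (0.05 on the high fat and 4.24 on the low fat diet), Ptchd4 (0.04 and 4.68) and Klf14 (-0.85 and 3.61) followed the same pattern, and none of the 3 was called on the high fat diet (adjusted p = 0.9, 0.943 and 0.0528), although Klf14 was called without wild-type high fat replicate 1 (adjusted p = 0.0153). Mest and Klf14 were close to the threshold and were both called when the 8 high fat arrays were fitted alone (adjusted p = 0.0223 and 0.0418). In that fit Perp, Krt18, Trp63 and Pde3b were not called (adjusted p = 0.076, 0.0839, 0.0547 and 0.063). Acot3, a peroxisomal thioesterase gene (-0.19 and -4.49), the dopamine receptor gene Drd1 (0.30 and -3.04) and the nuclear receptor gene Nr4a3 (-0.01 and -2.77) were lower in knockouts than in wild types fed the low fat diet. Acot3 and Drd1 lay under a log2 of 4 in all 8 high fat arrays, where no difference can be read. Abat, for the enzyme that degrades GABA, was lower by 1.23 on the log2 scale on the high fat diet and higher by 1.78 on the low fat diet. Nrcam, for a neuronal adhesion protein, was higher on the high fat diet by 2.37 ± 0.18 (adjusted p = 3e-06) and by 0.08 on the low fat diet. Npc1, for a lysosomal cholesterol exporter, was higher by 0.74 ± 0.18 on the high fat diet and lower by 1.45 on the log2 scale on the low fat diet.

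**Figure D5:**
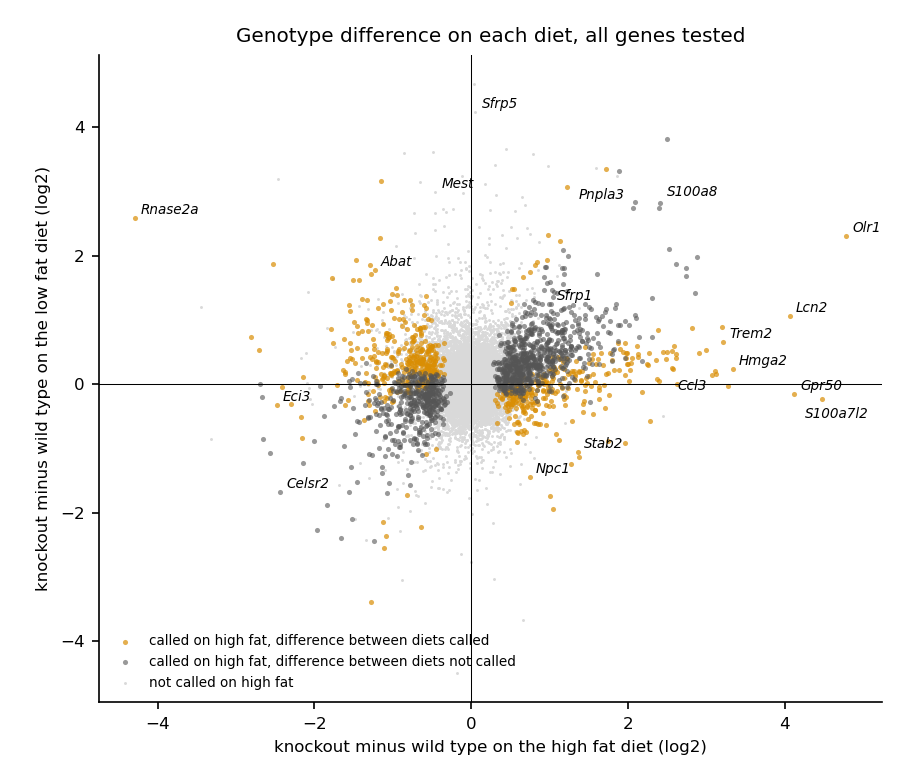
Knockout minus wild type on the high fat diet (x axis, log2) against the same difference on the low fat diet (y axis, log2) for the 12078 genes tested. Orange points were called on the high fat diet with a called difference between diets, dark grey points were called on the high fat diet without one, and light grey points were not called on the high fat diet. Olr1 lies high on both axes, Gpr50 and S100a7l2 near 0 on the y axis, and Sfrp5 near 0 on the x axis.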

How the data were processed

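RNA from white adipose tissue (5 ug per sample, extracted with Trizol, DNase and columns, per the labels' protocols) was hybridized to Affymetrix arrays. The authors deposited log2 values per probe set, and the submitters' processing notes name GCRMA 2.20.0 and R 2.11.1 as tools. No other step is stated. The log2 values ran from 0.594 to 14.2 and the medians of the 16 arrays from 4.34 to 4.46. GCRMA models background from probe sequence, so differences near the low end depend on that model.

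Of 45037 probe sets 34945 had 1 gene symbol, 932 several and 9160 none in the platform annotation, and the brightest single-symbol probe set stood for each gene. Group means were fitted to 16 arrays with limma 3.58.1 in R 4.3.3 (12 residual degrees of freedom and 3.84 from the prior), with two-sided moderated tests. The script was tested on simulated data. Genes named are Sirt1, the 10 largest rises and falls (values under 4 set to 4) among calls with and without wild-type high fat replicate 4 whose groups did not overlap, up to 4 called members with the smallest p per list, and the 5 strongest interactions in each direction. Provisional symbols, 75 of the calls, were not named.

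The comparison, the 40 gene lists and their members were chosen with earlier results of these data known. Of 926 list entries 851 matched as written, 3 through an older symbol and 72 not, and 736 were tested. Epididymal epithelium had 0 tested genes. Urothelial epithelium had 1 fall of 2, mammary epithelium 2 falls of 4 (Krt18 and Esr1), and erythroid and sex-linked lists 0 calls of 1 each. The sex-linked gene tested, Xist, stood at 11.39 to 11.76 in knockout and 11.475 to 11.607 in wild-type high fat arrays. The Y-linked genes Kdm5d, Uty and Eif2s3y lay under 4 in all arrays. Lists are described by counts and medians, with no set test. Promoter windows came from RefSeq.

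Alternatives changed the filter, a floor at 4, the variance model, array weights, scaling, the probe sets, the threshold, the arrays fitted, a replicate block and the removal of 1 array at a time.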

Additional observations from a re-analysis of the deposited data

Results flagged for a closer look

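For 65 of the 127 genes given above by the naming rule, the knockout difference on the high fat diet departed from that on the low fat diet by the interaction test of limma (adjusted p under 0.05), 34 upward and 31 downward. The share among all genes tested was 13% (1569 of 12078), and a high count was fixed by the choice of genes, which, Sirt1 apart, were named for their high fat difference or, in 10 cases, for their interaction. Each value that follows is the high fat difference minus the low fat difference on the log2 scale, with wild-type high fat replicate 4 included. The high fat falls of Aard and Gsta4 were smaller without that array, as given above.

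Among the large rises, the high fat difference exceeded the low fat one by 2.48 for Olr1, 3.00 for Lcn2 and 4.26 for Gpr50. The excess was 3.10 for Hmga2, 4.71 for S100a7l2 and 2.55 for Trem2. It was 2.97 for Zranb3, 2.45 for Sel1l3, 2.42 for Tlr13 and 2.30 for Nrcam. For macrophage and scavenger genes it was 0.87 for Clec7a, 1.56 for Fcgr1, 1.98 for Slc37a2, 1.81 for Msr1 and 2.42 for Stab2, and it was -1.65 for Timd4. For lysosome genes it was 0.69 for Gusb, 1.71 for Gla, 0.78 for Tfeb and 2.19 for Npc1. Chemokine, acute phase and complement genes gave 1.56 for Ccl4, 2.91 for Ccl3, 1.45 for Saa2, 1.93 for Saa1 and 2.00 for Cfi, and negative values of -1.24 for Cxcl9 and -0.95 for C2. Ccl4 lay under 4 in the wild-type high fat arrays and in all low fat arrays, and its value was 0.40 with values under 4 set to 4. The same floor gave 3.27 for S100a7l2. Cell cycle genes gave 1.53 for Bub1, 1.54 for Tk1 and 1.16 for Mcm2. Single genes of other lists gave 0.70 for Mvd, 0.94 for Oasl1, 0.81 for Mmp3 and 0.88 for Srxn1.

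Among the falls, the interaction was -6.89 for Rnase2a, -2.15 for Eci3, -2.38 for Aard and -1.32 for Ces1f. Mesothelial genes gave -1.99 for Bnc1, -1.95 for Aldh1a2, -1.52 for Upk3b and -0.55 for Efna5. Stromal and Wnt genes gave -1.57 for Wnt5a, -1.22 for Wnt5b, -1.63 for Sfrp2, -1.23 for Cd24a and -1.10 for Cd55. Matrix genes gave -1.86 for Col14a1 and -1.58 for Mmp9. Antigen presentation and interferon genes gave -2.37 for H2-DMb2, -2.79 for Cd209a, -0.90 for Ifit3 and -1.01 for Usp18. Metabolic and other genes gave -1.32 for Fads2, -0.98 for Plagl1, -2.25 for Gsta4, -1.20 for Hlf and -3.01 for Abat. The genes named for their interaction gave 3.33 for Drd1, 4.30 for Acot3, 2.77 for Nr4a3, -3.45 for Mest, -4.19 for Sfrp5, -4.64 for Ptchd4 and -4.46 for Klf14. With values under 4 set to 4, the interaction was 2.35 for Drd1, 3.20 for Acot3 and -4.075 for Ptchd4.

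In 13 of 254 groups of 4 high fat arrays, 1 array stood apart from the other 3, with a gap to the nearest of them, as a share of the whole range, above Dixon's 95% critical value. Chance flags about 1 in 20 groups. The gap was 0.877 of the range for Lcn2 in knockout replicate 2, 0.885 for Gpr50 in wild-type replicate 1 and 0.864 for Pnpla3 in wild-type replicate 3. In wild-type replicate 4, the array with epithelial transcripts, it was 0.843 for Krt18, 0.864 for Trp63 and 0.847 for Aard. In wild-type replicate 1 it was 0.849 for Retn, 0.856 for Cd209a and 0.839 for Sfrp5. In knockout replicate 2 it was 0.840 for Ces1f, 0.848 for Ifit3 and 0.921 for Hlf, and in knockout replicate 1 it was 0.872 for Irs1.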

How the results depend on the processing

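The 1818 calls on the high fat diet (1036 higher, 782 lower) became 3424 (1844 and 1580) with array weights, 3184 probe sets (1852 and 1332) when each probe set was tested, and 837 (521 and 316) at a threshold of 0.01. They became 814 (497 and 317) without the 5 arrays with muscle transcripts, and 486 (330 and 156) without wild-type high fat replicate 4 as well, both chosen after the data were seen and both with fewer arrays. Leaving out 1 array gave 1084 to 2079 calls, 670 to 1175 higher and 414 to 904 lower. The cause of these shifts was not tested. The 2284 low fat calls became 4619 for probe sets, 1060 at 0.01, and 845 and 755 without the same arrays (1426 to 3075 leaving out 1). The 1569 interaction calls became 2481 with array weights, 2898 for probe sets, 576 at 0.01, and 424 and 307 without the same arrays (1098 to 2382 leaving out 1).

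Replicate numbers did not pair the arrays, since the deviations of same-numbered knockout and wild-type high fat arrays correlated at 0.17, 0.11, -0.20 and 0.004, and 1 of 4 knockout arrays correlated best with its own number. With the number as a replicate block 1670 genes were called, and of the named calls Ehhadh and Pde3b were not among them (adjusted p = 0.0517 and 0.0713).

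Over the 131 named genes and 30 settings, 3675 of 3913 values kept their direction and side of the threshold, 213 lost the call, 14 gained it and 11 changed sign. The sign changes were of genes that were not called. Nr4a3 (-0.01) became 0.083 with the mean of probe sets, 0.106 without the muscle arrays and wild-type replicate 4, and ranged from -0.204 to 0.17 with 1 array left out, positive without wild-type replicates 2 and 4 and knockout replicates 1 and 2. Sfrp5 (0.05) became -0.055 without wild-type replicate 1, 0.129 without the muscle arrays and wild-type replicate 4, and 0.143 with the mean of probe sets. Ptchd4 (0.04) became -0.071 with array weights and ranged from -0.118 to 0.199 with 1 array left out, negative without wild-type replicates 1 and 4 and knockout replicate 3. For values under a log2 of 4, signal over background limits what can be read.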
